A study of Mus musculus with 24 samples.

Results

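Mouse livers collected at the start of the light phase were compared with livers collected at the start of the dark phase. The comparison used 8 of the 24 samples listed for the series, chosen by their labelled times. The 4 early-light libraries came from wild-type and Nudt12 knockout mice at zeitgeber time (ZT, hours after lights on) 0 and 4. The 4 early-dark libraries came from both genotypes at ZT12 and ZT16. Each genotype and time was represented by 1 library, and genotype was kept as a covariate. All mice were 4 to 6 months old and had been held in 12 h of light and 12 h of dark for 10 days. The knockout was 1 line with a 58 bp deletion in exon 6 of Nudt12, made with Cas9 in embryos of the B6D2F1/J hybrid and crossed with C57BL/6J. The labels give no sex and do not state that libraries of one group came from separate animals, so p-values measure only the spread between these libraries, which may be technical in part. In the comparison of the groups, that spread also holds the differences between the times within a group.

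The liver clock is a loop in which CLOCK and BMAL1 (gene Arntl), or NPAS2 in place of CLOCK, bind E-box motifs and drive the Per and Cry genes, whose proteins then block them. REV-ERB receptors (Nr1d1, Nr1d2) and ROR receptors act on Arntl, and the PAR-bZIP factors DBP, TEF and HLF pass time of day on to genes of metabolism. Mice eat mainly in the dark and their corticosterone rises before the dark, so clock, feeding and hormone signals all reach the liver at daily intervals. Cholesterol and bile acid synthesis, glycogen storage and detoxification are known to vary over the day in mouse liver.

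Values are normalized estimated counts per gene as deposited by the authors. They summed to 16.9 to 19.9 M (mega, 1e+06) in the 8 libraries, and with the step shared by many low values of a library taken as 1 read they correspond to about 16.1 to 25.3 M reads per library. Nudt12 checked the genotype labels, not those of time: it stood at 982, 1180.3, 199.6 and 176 in the early-light libraries (wild-type ZT0, wild-type ZT4, knockout ZT0, knockout ZT4, the order used for all early-light values here) and at 1175, 879, 177 and 193 in the early-dark libraries (wild-type ZT12, wild-type ZT16, knockout ZT12, knockout ZT16, the order used for all early-dark values). The 4 knockout libraries averaged 17.7% of the wild-type level, and every one lay below every wild-type library. The 12 hepatocyte markers, among them Alb (albumin), were detected in all 8 libraries, with a summed level of 1393000 to 1683000 in early light and 1708000 to 2097000 in early dark. None of the 12 was called, and 11 were lower in early light, as were 47.2% of all tested genes, with a median log2 difference of -0.20. In such bulk samples fewer cells of a type and less RNA per cell cannot be told apart. The Y-linked gene Ddx3y ran from 1318 to 2026 across the 12 libraries of the time course.

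Markers of other tissues were high in some libraries. The summed level of 12 exocrine pancreas markers was 9419 in the wild-type ZT0 library and 1551 in the knockout ZT0 library. It was 16050 in the knockout ZT16 library and 425.9 to 508.2 in the other 5. Over both genotypes all 12 were higher in early light, as were 52.8% of all tested genes, with a median log2 difference of 1.12. That median was 4.18 within wild type and -2.06 within knockout, so the genotypes differed in direction. The summed level of 6 skeletal muscle markers was 377 and 658 in the ZT4 libraries and 0 to 86.2 in the other 6. Of 12 adipocyte and muscle markers 11 were higher in early light, with a median of 2.33. None of these markers was called. Globin mRNAs, which come with blood, summed to 4718 to 6609 in early light and 2336 to 3881 in early dark, and 7 of 7 tested neutrophil and erythroid markers were higher in early light with a median log2 difference of 1.13, none of them called. Mitochondrially encoded genes took 6.72 to 12.3% of the early-light and 9.75 to 15.1% of the early-dark libraries. The part of blood, mitochondrial RNA and other tissues in single results was not tested.

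Of 18653 genes tested, 140 (0.751%) differed between early light and early dark at an adjusted p under 0.05 (limma with Benjamini-Hochberg adjustment over all tested genes), and 2299 (12.3%) did so at an unadjusted p under 0.05. Of the 140, 50 were higher in early light (0.268% of tested genes) and 90 in early dark (0.482%). Those higher in early light comprised 43 protein-coding genes, 3 pseudogenes and 4 other transcripts, and those higher in early dark comprised 76, 5 and 9. Leaving aside 1 early-light and 3 early-dark genes listed at 0 in the whole opposite group, whose log2 values depend on the pseudocount, absolute log2 differences ran from 0.55 to 4.50 with a median of 1.15 for the 49 other genes higher in early light, and from 0.57 to 4.64 with a median of 1.24 for the 87 others higher in early dark. Over all tested genes the median log2 difference was 0.03. In each of the 140 genes the 4 libraries of one group lay wholly above the 4 of the other, a separation seen in 8.13% of all tested genes. It follows from this separation that the difference had the same sign in both genotypes. Within wild type alone the median log2 difference of the called genes was 1.13 for the early-light and -1.23 for the early-dark genes, and within knockout it was 1.16 and -1.28.

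The count depended on the libraries used. Leaving out 1 library at a time gave 50 to 121 genes, the lowest without the knockout ZT12 library and the highest without the wild-type ZT16 library; only the latter kept the count within 1.5 times of 140. The counts without the other libraries were 67 (wild-type ZT0), 81 (wild-type ZT4), 65 (wild-type ZT12), 75 (knockout ZT0), 79 (knockout ZT4) and 71 (knockout ZT16). Without the wild-type ZT0 and knockout ZT16 libraries, which had the highest pancreas markers, 12 genes were called, and without the 2 ZT4 libraries, which had the highest muscle markers, 27 were. Leaving out any 1 library kept 45 to 87 of the 140 among the called genes. In both subsets of libraries all 140 genes kept their direction and an unadjusted p under 0.05, and the median log2 differences were 1.15 and -1.30 in the first and 1.11 and -1.32 in the second. The direction could not change, because the groups do not overlap in these genes. The genes were also picked by p on libraries that include these subsets, so neither result is a test of the calls.

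**Figure D1:**
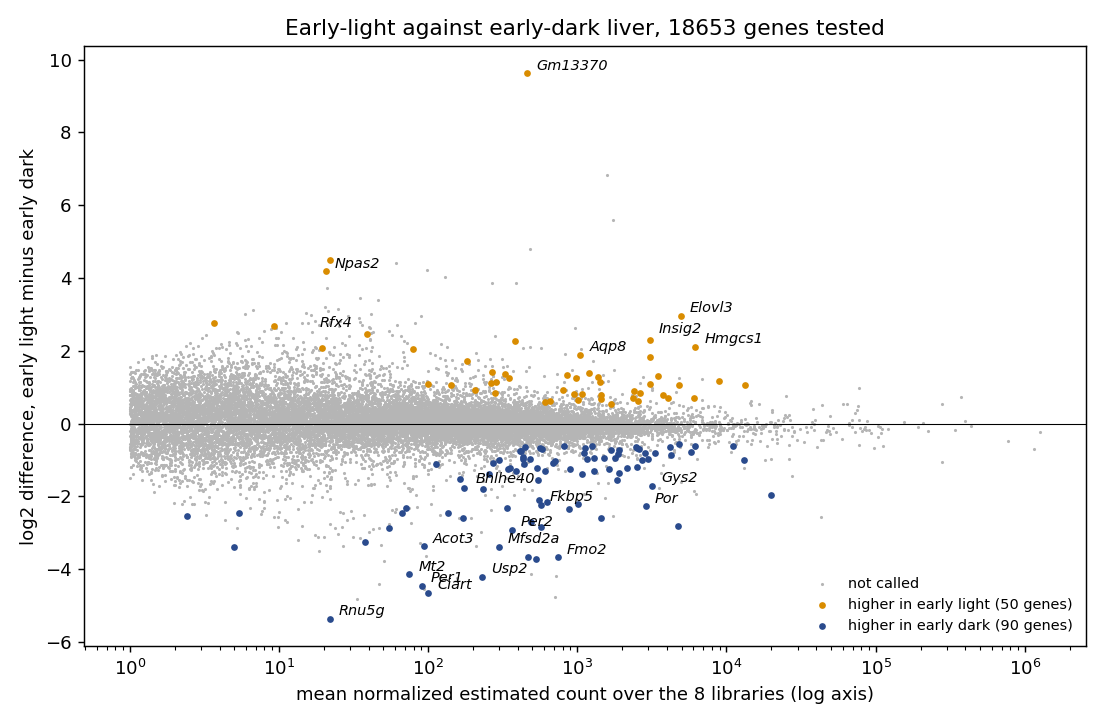
Log2 difference between early-light and early-dark liver (vertical axis, early light minus early dark) against the mean normalized estimated count over the 8 libraries (horizontal axis, log scale) for 18653 genes, with called genes in colour. The 50 genes higher in early light include Elovl3, Insig2, Hmgcs1 and Npas2, and the 90 higher in early dark include Per1, Usp2, Ciart, Mt2 and Por.

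Of 23 core clock genes, 5 rose in early dark (Per1, Per2, Usp2, Ciart and Bhlhe40) and 1 in early light (Npas2), where 0.482% and 0.268% of all tested genes did. The median log2 difference of the 23 was -0.59, against 0.03 for all genes. Without the wild-type ZT0 and knockout ZT16 libraries none was called and the median was -0.69, and without the ZT4 libraries 4 were called in early dark and the median was -1.12. Per1, Per2, Ciart and Bhlhe40 encode repressors of the loop. The first promoters of the called clock genes that the sequence table holds are shown, because E-boxes are the motif through which CLOCK and BMAL1 are known to act on such genes; Npas2 is shown as the gene that moved the other way. Each runs from 250 bases before to 50 after the annotated start, 5′ to 3′ on the strand of the gene, and comes from RefSeq on GRCm38.p6. Capitals mark the E-box CACGTG, which reads the same on both strands and was the only motif found in these 4 promoters. The other 4 motifs searched, on both strands, were the D-box TTANGTAA, the ROR element half-site TAGGTCA, the CRE TGACGTCA and the heat shock element (GAA, any 2 bases, TTC, any 2 bases, GAA).
Per1, chr11:69098699-69098998, plus strand: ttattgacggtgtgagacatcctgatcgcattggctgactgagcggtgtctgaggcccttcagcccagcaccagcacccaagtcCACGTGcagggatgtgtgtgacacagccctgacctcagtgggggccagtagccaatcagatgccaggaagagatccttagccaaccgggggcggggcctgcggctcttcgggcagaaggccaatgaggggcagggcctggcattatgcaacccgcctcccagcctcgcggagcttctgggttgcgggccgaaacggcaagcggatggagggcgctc
Ciart, chr3:95882179-95882478, minus strand: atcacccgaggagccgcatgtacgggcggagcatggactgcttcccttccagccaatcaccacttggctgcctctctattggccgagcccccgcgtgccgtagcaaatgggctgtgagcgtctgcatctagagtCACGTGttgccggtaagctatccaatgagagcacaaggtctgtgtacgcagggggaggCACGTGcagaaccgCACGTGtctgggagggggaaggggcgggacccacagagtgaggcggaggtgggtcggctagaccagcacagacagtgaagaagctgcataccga
Usp2, chr9:44084670-44084969, plus strand: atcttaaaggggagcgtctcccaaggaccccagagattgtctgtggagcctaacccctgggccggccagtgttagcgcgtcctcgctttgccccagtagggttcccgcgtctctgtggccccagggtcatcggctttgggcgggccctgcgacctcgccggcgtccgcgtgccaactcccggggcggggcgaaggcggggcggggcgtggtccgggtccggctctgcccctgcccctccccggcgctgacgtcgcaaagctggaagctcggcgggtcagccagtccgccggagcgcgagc
Npas2, chr1:39194022-39194321, plus strand: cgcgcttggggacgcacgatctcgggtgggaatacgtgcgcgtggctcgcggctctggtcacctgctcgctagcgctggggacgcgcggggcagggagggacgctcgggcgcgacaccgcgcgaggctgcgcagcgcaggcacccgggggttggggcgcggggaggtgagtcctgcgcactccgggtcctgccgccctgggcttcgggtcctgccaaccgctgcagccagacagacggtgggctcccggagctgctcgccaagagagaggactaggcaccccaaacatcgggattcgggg

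The Ciart promoter held 3 E-boxes, at 116, 58 and 44 bases before the start, and the Per1 promoter held 1 at 166 bases before it. The promoters of Usp2 and Npas2, and a second annotated start of Per1, had no match in this window. Among all 32851 promoters of the same length, 7.15% held at least 1 E-box and 0.0883% held 3 or more. Of the genes called, 35 of the 50 higher in early light and 62 of the 90 higher in early dark matched at least 1 promoter in the table. An E-box lay in 11.8% of the 51 promoters of the former and in 9.52% of the 84 promoters of the latter. The D-box, to which DBP, TEF, HLF and the repressor NFIL3 bind, lay in 9.52% of the early-dark and in 0% of the early-light promoters, against 2.32% of all promoters. The 6 early-dark genes with a D-box were Coq10b, Slc25a25, Ak4, Homer2, Gde1 and Trak1, and 3 of the 8 promoters are overlapping starts of Ak4. The ROR half-site lay in 2.61% of all, 3.92% of early-light and 1.19% of early-dark promoters, the CRE in 1.79%, 1.96% and 5.95%, and the heat shock element in 0.603%, 0% and 0%. A match in these letters is a description, not a binding site.

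Per1, a repressor of CLOCK and BMAL1 that also responds to glucocorticoids, stood at 4.37, 12.8, 3.56 and 7.79 in early light and 249, 87, 214 and 145 in early dark. All early-dark libraries lay far above all early-light ones, with the wild-type ZT12 library highest. The log2 difference was -4.46 ± 0.46 (SE, n = 4 against 4 in every such value; limma adjusted p = 0.00602), which is 22-fold higher in early dark. Per2, the other main Period repressor, stood at 78.2, 57.5, 170.4 and 59.6 in early light and 569.8, 631, 565 and 772 in early dark, again with no overlap (-2.92 ± 0.31, limma adjusted p = 0.00636). Its highest early-light value was in the knockout ZT0 library. Ciart, a repressor of CLOCK and BMAL1 also called Chrono, stood at 4.01, 23.2, 0.998 and 6.14 and 295, 79, 296 and 95.1. It was at its highest in the 2 ZT12 libraries and its difference was -4.64 ± 0.74 (limma adjusted p = 0.0337). In the 8 fits that each left out 1 library, Per1 and Per2 were called in 8 of 8 fits and Ciart in 2 of 8.

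Usp2, a ubiquitin protease that acts on clock proteins, stood at 20.6, 41.4, 10.8 and 23.8 in early light and 532, 323, 564 and 322 in early dark. It was the clock gene with the smallest p, 18.5-fold higher in early dark (-4.21 ± 0.37, limma adjusted p = 0.00239). Bhlhe40 (DEC1), which competes for E-boxes, ranged from 388 to 701 in early light and from 1072 to 1430.1 in early dark (-1.25 ± 0.18, limma adjusted p = 0.0212). Wee1, a cell cycle kinase known as a clock output in mouse liver, was the only one of 18 cell cycle and checkpoint genes called, against 0.751% of all tested genes. Its values were 65.8, 49.4, 57.8 and 13.2 and 285, 202, 237 and 186, lowest in the knockout ZT4 library (-2.46 ± 0.42, limma adjusted p = 0.042). Over the 8 fits without 1 library, Usp2 was called in 8, Bhlhe40 in 4 and Wee1 in 2 of the 8 fits.

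Npas2, the partner of BMAL1 that can replace CLOCK, stood at 39, 6.02, 47.7 and 67 in early light and 0, 0.727, 3.88 and 0 in early dark. The wild-type ZT4 value was the lowest of the early-light group and still above the highest early-dark value, in a gene listed at 0 in 2 early-dark libraries (4.19 ± 0.71, limma adjusted p = 0.0387). It was called in 1 of the 8 fits that left out a library, the one without wild-type ZT4, and was not called with a pseudocount of 0.1 or 5 (limma adjusted p = 0.0811 and 0.0536). Arntl, which encodes BMAL1, had a difference of similar sign, 2.40 ± 0.76, and was not called (limma adjusted p = 0.255). Its values were 638, 221, 557 and 341 in early light and 15.5, 171, 50.6 and 237 in early dark, so that the wild-type ZT4 value lay below that of the knockout ZT16 library. Clock itself stood at 1674, 1403, 1506 and 1461 and 572, 1249, 774 and 1457 and was not called either (limma adjusted p = 0.362).

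In several clock genes that were not called, the times within a group differed widely. Nr1d1 stood at 15, 265, 10.3 and 352 in early light and 136, 17.6, 65.2 and 17.9 in early dark: high at ZT4 and low at ZT0, and higher at ZT12 than at ZT16. Dbp did the same with 12.4, 313, 17.7 and 98 and 919, 125, 553 and 87.4, and its log2 difference of -2.38 ± 1.10 was not called (limma adjusted p = 0.431). Cry1 was high at ZT0 and low at ZT4 (478, 80.4, 366 and 103) and stood at 152, 317, 302 and 515 in early dark. Per3, Tef and Cry2 were lower in early light without passing the threshold, at -2.58 ± 0.52, -1.64 ± 0.30 and -0.89 ± 0.26 (limma adjusted p = 0.0795, 0.0565 and 0.207). The Tef values did not overlap, at 530.1 to 1065 against 1692 to 3236. The remaining 9 genes, which did not pass either, ran from -1.62 ± 0.79 for Nr1d2, a REV-ERB receptor, to 0.62 ± 0.30 for Nfil3, the repressor that competes with DBP. Among them Bhlhe41, a relative of Bhlhe40, differed by -1.15 and Hlf by -0.47.

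**Figure D2:**
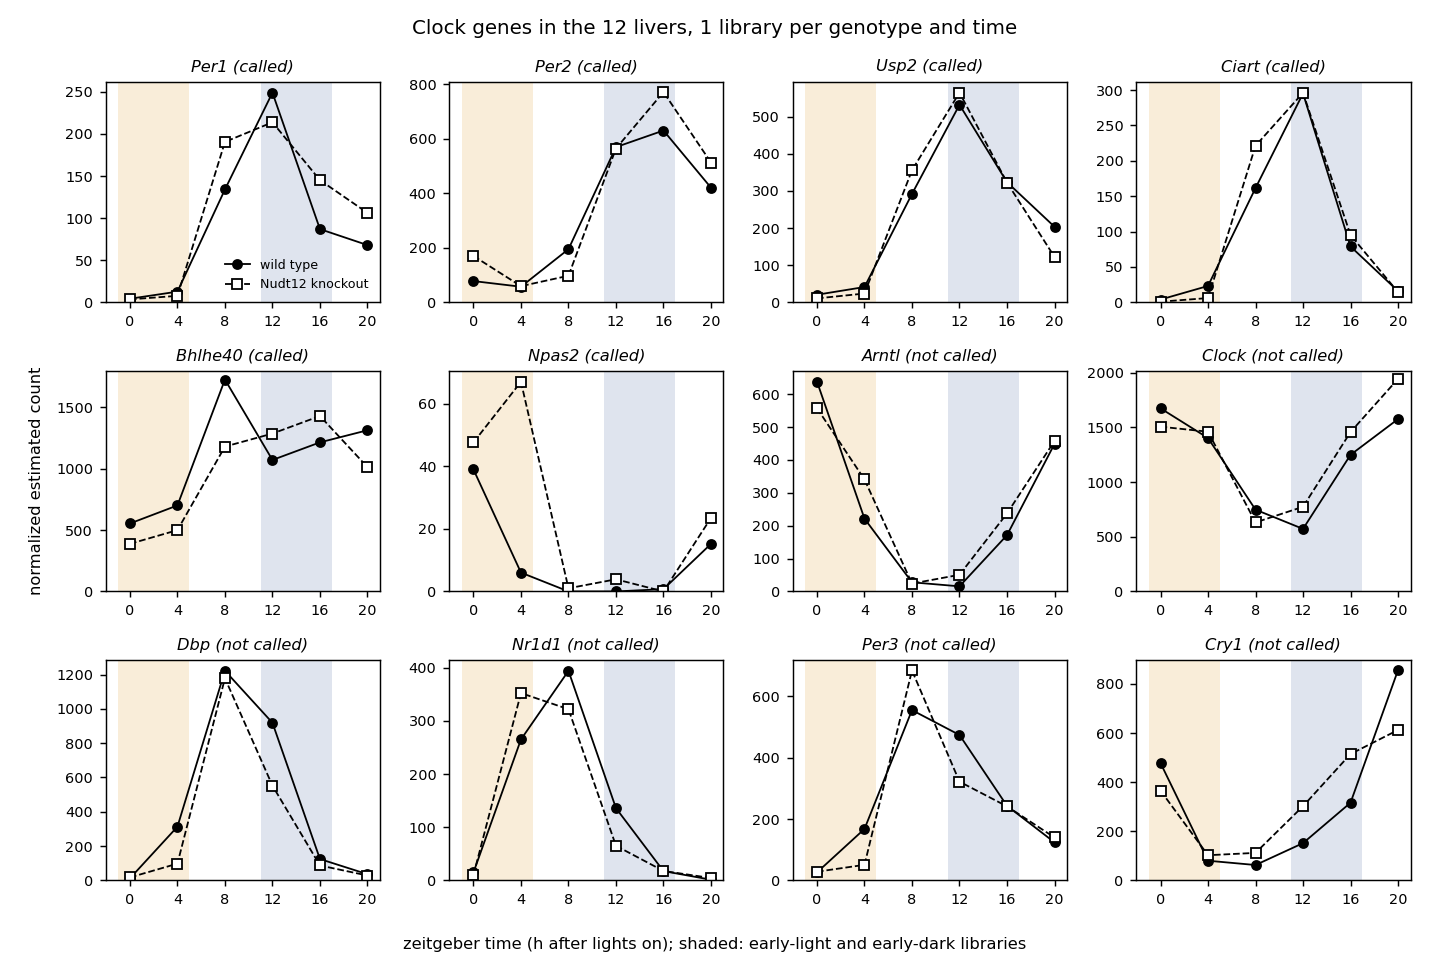
Normalized estimated counts (vertical axis, from 0) of 12 clock genes against zeitgeber time (horizontal axis, hours after lights on) in wild-type (filled circles) and Nudt12 knockout liver (open squares), 1 library per point, with the early-light and early-dark times shaded. Per1 and Usp2 are lowest at ZT0 and ZT4 in both genotypes and highest at ZT12, while Dbp is highest at ZT8 and Nr1d1 at ZT8 in wild type and ZT4 in knockout.

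Of the lists examined, cholesterol synthesis had the most members called higher in early light. Of 23 genes, 7 rose in early light and none in early dark, where 0.268% of all tested genes rose in early light. In 14 of the 23, every early-light library lay above every early-dark library, against 3.9% of all tested genes. The median log2 difference was 0.55, and the summed level of the list was 59890 to 67780 in early light and 39080 to 44810 in early dark. Leaving out 1 library at a time gave 4 to 8 called members, with 4 without wild-type ZT0, knockout ZT0 or knockout ZT4. Without the wild-type ZT0 and knockout ZT16 libraries none was called and the median was 0.57, and without the ZT4 libraries 1 was called and the median was 0.62.

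Hmgcs1, the synthase of hydroxymethylglutaryl-CoA at the entry of the pathway, stood at 10921, 10228, 8343 and 10658 in early light and 1861, 2319, 3179.6 and 2036 in early dark. The groups lay far apart, and the highest early-dark value was that of the knockout ZT12 library (2.12 ± 0.17, 4.34-fold, limma adjusted p = 0.00176). Its promoter is shown because this member had the largest difference of the list, with the sterol regulatory element TCACNCCAC (searched on both strands after the values were seen) in capitals at 137 bases before the start; 1.24% of all promoters of that length held this motif, along with 1.96% of the early-light and 2.38% of the early-dark promoters, and in the early-light group the one match was that of Hmgcs1.
Hmgcs1, chr13:119690101-119690400, plus strand: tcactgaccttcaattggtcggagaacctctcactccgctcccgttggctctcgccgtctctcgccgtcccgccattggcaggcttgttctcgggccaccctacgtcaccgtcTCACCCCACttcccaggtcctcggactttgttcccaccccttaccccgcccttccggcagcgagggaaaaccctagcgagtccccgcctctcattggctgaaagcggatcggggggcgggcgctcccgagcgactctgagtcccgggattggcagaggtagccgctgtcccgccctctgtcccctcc

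Of the next enzymes, mevalonate pyrophosphate decarboxylase (Mvd) stood at 258, 254, 266 and 330.0 in early light and 49.4, 102, 81.7 and 117 in early dark (1.71 ± 0.24, limma adjusted p = 0.0202). The isomerase of isopentenyl diphosphate, Idi1, stood at 3969.9, 3744, 4899.5 and 4068 and 1888, 2159, 1828 and 1883, with narrow groups that lay 2.14-fold apart (limma adjusted p = 0.00602). Farnesyl diphosphate synthase (Fdps) ranged from 2759.9 to 3549.6 against 1418 to 2015 (0.89 ± 0.14). Squalene synthase, Fdft1, commits the pathway to sterols and had the smallest p of the list: its values were 1877, 2164, 1878 and 1955 in early light and 887, 943, 877 and 831 in early dark (1.15 ± 0.09, limma adjusted p = 0.00176). The difference was 1.14 in wild type and 1.17 in knockout. Squalene epoxidase (Sqle, 987 to 1377 against 582 to 743) and lanosterol demethylase (Cyp51, 3103 to 3735 against 1797 to 1976) rose by 0.81 ± 0.12 and 0.84 ± 0.09 on the log2 scale (limma adjusted p = 0.0212 and 0.00679). Across fits that left out 1 library each, Hmgcs1, Idi1, Fdft1 and Cyp51 were called in 8 of 8 fits, Mvd in 3, Sqle in 2 and Fdps in 1.

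Lss, which acts between Sqle and Cyp51, and Msmo1, a sterol oxidase that acts after Cyp51, had differences of 0.71 ± 0.13 and 0.97 ± 0.19 that did not pass (limma adjusted p = 0.0565 and 0.0737), although their groups did not overlap. At ZT8 and ZT20, which lie between the groups, Hmgcs1 stood at 8016 and 8142 (wild type, knockout) and 5971 and 3214. None of the 23 genes was called between ZT8 and ZT20.

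**Figure D3:**
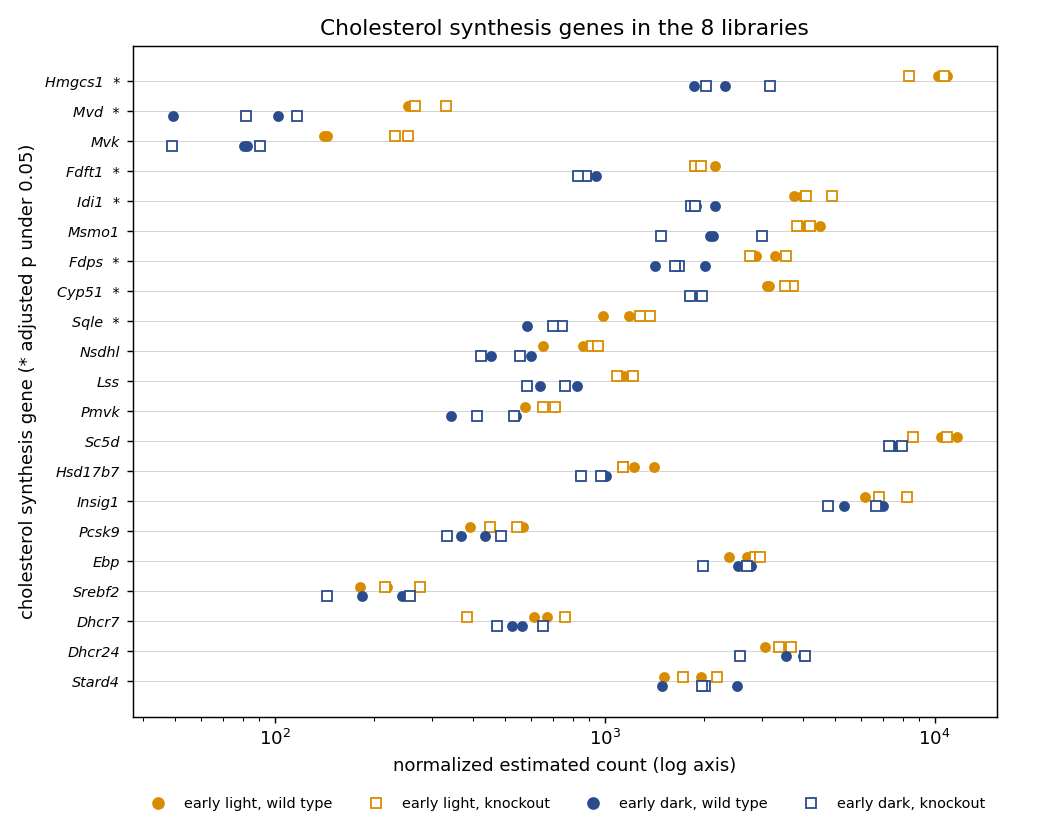
Normalized estimated counts (horizontal axis, log scale) of 21 of the 23 cholesterol synthesis genes in each of the 8 libraries, ordered by log2 difference, with early light in orange, early dark in blue, wild type filled and knockout open; an asterisk marks an adjusted p under 0.05. The 4 early-light points lie to the right of the 4 early-dark points in 14 genes.

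Insig2, an anchor that holds the sterol sensor SCAP in the endoplasmic reticulum, is itself known as a rhythmic gene and stood at 6029, 2574, 6631 and 5062 in early light and 759.6, 1471, 572 and 1439 in early dark. The lowest early-light value was the wild-type ZT4 one (2.29 ± 0.38, limma adjusted p = 0.0384). Elovl3, an elongase of very long fatty acids and a known clock output with higher levels in male liver, stood at 12049, 5372, 10108 and 7464 and 908, 1259, 588 and 1936. In both genotypes it was higher at ZT0 than at ZT4, and after Npas2 it had the largest log2 rise of the 43 protein-coding genes higher in early light (7.82-fold, 2.97 ± 0.38, limma adjusted p = 0.0126). Of 19 genes of fatty acid synthesis, 4 rose in early light and 1 in early dark (0.268% and 0.482% of all tested genes), with a median of 0.13; without the ZT4 libraries 1 was called, in early dark, and the median was -0.06, and without wild-type ZT0 and knockout ZT16 none was, with a median of 0.18. Besides Insig2 and Elovl3, the members called in early light were Elovl5 (3985 to 5791 against 2276 to 3068, 0.79 ± 0.14) and the acetyl-CoA synthetase Acss2 (2590.1 to 3595 against 1784 to 2242, 0.63 ± 0.10; limma adjusted p = 0.0411 and 0.0309). Fads2, the delta-6 desaturase of polyunsaturated fatty acids, moved the other way, at 1837, 2090.4, 1877 and 2282 in early light and 4350.5, 4092, 3634 and 3651 in early dark (-0.96 ± 0.11, limma adjusted p = 0.00806). Elovl6 and Thrsp, which mark synthesis of fatty acids from carbohydrate, had differences of -0.79 ± 0.16 and -1.60 ± 0.39 that did not pass (limma adjusted p = 0.0794 and 0.137). When each library was left out in turn, Elovl3 and Fads2 were called in 8 of 8 fits, Insig2 in 2, Elovl5 in 1 and Acss2 in 0.

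Among 15 genes of bile acid synthesis and transport, 1 rose in early light and none in early dark (0.268% and 0.482% of all tested genes), with a median of -0.09. It was Abcb11, the pump that exports bile salts into the canaliculus, which stood at 19688, 18969, 13995 and 19793 and 10521, 8656, 6498 and 9043 (1.07 ± 0.15, limma adjusted p = 0.0185). The knockout ZT0 library was the lowest of its group and still above the early-dark libraries. Hsd3b7, a further enzyme of bile acid synthesis that is no member of the list, stood at 5301, 6932, 6364 and 7305 and 3072, 3453, 3050.5 and 2695, about 2.1-fold higher in early light (limma adjusted p = 0.0109). Aqp8, a water channel of the canalicular membrane, stood at 2257, 1058, 1627 and 1644 and 264, 631, 394 and 509 (1.89 ± 0.30, limma adjusted p = 0.0333). Cyp7a1, the rate-limiting enzyme of bile acid synthesis, was not called, at 3653, 2866, 1344 and 3042 and 2845, 10736, 3421 and 5031 (limma adjusted p = 0.413); its highest value was in the wild-type ZT16 library. In the 8 fits that each left out 1 library, Hsd3b7 was called in 8, Abcb11 in 4 and Aqp8 in 2 of the 8 fits.

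Of 15 genes of glycolysis and glycogen 1 was called, and of 15 genes of gluconeogenesis and amino acid catabolism 2 were, where 0.751% of all tested genes were called in either direction. Gys2, the liver glycogen synthase, stood at 1908, 1663, 1164 and 1283 in early light and 5925, 4282, 4926 and 4265 in early dark (3.25-fold higher in early dark, -1.70 ± 0.14, limma adjusted p = 0.00176), and was the one glycolysis and glycogen gene called. Slc37a4, the transporter that brings glucose-6-phosphate to its phosphatase, stood at 1184, 1302, 1245 and 1144 and 2505, 2161, 2524 and 2216, in tight and separate groups (-0.95 ± 0.10, limma adjusted p = 0.00657). Among the genes of gluconeogenesis and amino acid catabolism it was the one that rose in early dark, and Hal, the histidine ammonia-lyase, the one that rose in early light (6585 to 8136 against 4353 to 4816, 0.70 ± 0.09, limma adjusted p = 0.0145). The median log2 differences of the lists were -0.29 for glycolysis and glycogen and -0.66 for gluconeogenesis and amino acid catabolism. Pck1 and G6pc, central enzymes of glucose production, had differences of -1.45 ± 0.43 and -0.65 ± 0.15 that did not pass (limma adjusted p = 0.226 and 0.111). Over the 8 fits without 1 library, Gys2 and Slc37a4 were called in 8 of 8 fits and Hal in 4.

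Of 25 targets of PPARα and genes of ketogenesis, only Acot3, a peroxisomal acyl-CoA thioesterase, was called, where 0.751% of all tested genes were. It stood at 21.7, 32.2, 8.34 and 5.78 in early light and 143, 94.6, 328 and 119.7 in early dark (-3.37 ± 0.56, limma adjusted p = 0.0356); it lies among close paralogs, so its reads may be shared, and it was called in 2 of the 8 fits that left out a library. Cpt1a, the gate of mitochondrial fatty acid oxidation, Angptl4 and Pdk4 had differences of -0.94, -1.85 and 1.63 that did not pass. Crot, a peroxisomal carnitine acyltransferase, was higher in early light in narrow groups, at 11588, 12907, 11631 and 12968 and 5945, 4708, 6257 and 4999.6 (1.17 ± 0.12, limma adjusted p = 0.00602). Mfsd2a, a transporter of lysophospholipids that carry docosahexaenoic acid, stood at 69.1, 61.9, 13.3 and 48.5 and 1024, 684, 171 and 301. It was 10.4-fold higher in early dark (-3.38 ± 0.38, limma adjusted p = 0.00773). In the early-light and in the early-dark group, both wild-type libraries lay above both knockout libraries. At ZT8 and ZT20 the knockout library was the higher, at 139 and 283 against 119 and 178 in wild type. Crot and Mfsd2a were called in 8 of 8 such fits.

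The glucocorticoid response list had the lowest median of the lists of pathways and responses, -1.01. Of its 15 genes, 4 rose in early dark, where 0.482% of all tested genes did, and none in early light. In 10 every early-dark library lay above every early-light library, against 4.23% of all tested genes. Without the ZT4 libraries, and without wild-type ZT0 and knockout ZT16, 1 was called, with medians of -1.01 and -1.20. One of the 4 is Per1, which the clock list also holds. Fkbp5, a chaperone of the glucocorticoid receptor and a known target of it, stood at 177, 164, 325 and 156 in early light and 858, 1014, 1140.0 and 742 in early dark (4.71-fold, -2.24 ± 0.25, limma adjusted p = 0.0068). Mt2, a metallothionein that binds zinc and responds to metals as well as to glucocorticoids, stood at 3.97, 4.62, 9.71 and 5.58 and 145, 79.7, 294 and 54.5 (-4.14 ± 0.51, limma adjusted p = 0.0119), highest in the knockout ZT12 library. Its neighbour Mt1 just missed the threshold with values of 26.7, 48.6, 35.9 and 46.6 and 423, 181, 904 and 136 (limma adjusted p = 0.0543). Errfi1, an inhibitor of EGF receptor signalling, ranged from 6846 to 10843 against 15070.0 to 18543 (-1.01 ± 0.16, limma adjusted p = 0.0329). Tat and Tsc22d3, targets of the same receptor, had differences of -1.01 ± 0.21 and -1.16 ± 0.29 that did not pass (limma adjusted p = 0.0802 and 0.143). Serpina6, which encodes the corticosteroid-binding globulin of plasma, rose in early dark at 1411, 1664, 1159 and 1942 against 3986, 2883, 3520.3 and 3550.4 (-1.19 ± 0.17, limma adjusted p = 0.0214). Across fits that left out 1 library each, Fkbp5 and Mt2 were called in 8 of 8 fits, Serpina6 in 3 and Errfi1 in 1.

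Of 20 genes of xenobiotic metabolism, 3 rose in early dark and none in early light (0.482% and 0.268% of all tested genes), with a median of -0.34; 2 were called without the ZT4 libraries and 1 without wild-type ZT0 and knockout ZT16. Por, the reductase that gives electrons to all microsomal cytochromes P450, stood at 754, 1317, 842 and 1074 in early light and 5688, 4641, 3909 and 4751 in early dark. The groups lay far apart, and the difference was 4.83-fold (-2.27 ± 0.18, limma adjusted p = 0.00176). Cyp2a5, a coumarin hydroxylase known to be under circadian control in mouse liver, stood at 8796, 9829, 4705 and 10175 and 32546, 35708, 31296 and 25510.0 (-1.95 ± 0.22, limma adjusted p = 0.0068); it has a near-identical paralog, Cyp2a4, with which reads may be shared. Nr1i3, the nuclear receptor CAR, ranged from 1595 to 2479 against 2506 to 3853 (-0.69 ± 0.11, limma adjusted p = 0.0309). Alas1, the rate-limiting enzyme of haem synthesis, had a difference of -1.85 ± 0.39 that did not pass (limma adjusted p = 0.0883): 3 early-light libraries lay between 1876 and 1994, and the knockout ZT0 library stood at 4945. Clpx, a subunit of the mitochondrial protease that degrades ALAS1, was higher in early light, at 5917, 3373, 6597 and 3429.9 against 769.5, 1621, 1146 and 1910.1 (1.84 ± 0.32, limma adjusted p = 0.0429). When each library was left out in turn, Por and Cyp2a5 were called in 8 of 8 fits, Nr1i3 in 1 and Clpx in 0.

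NUDT12 acts on NAD, so the genes of NAD metabolism were followed as a list. Of 26 genes, 2 rose in early dark and none in early light (0.482% and 0.268% of all tested genes), with a median of -0.01; none was called without the ZT4 libraries and 1 without wild-type ZT0 and knockout ZT16. Nampt, the rate-limiting enzyme of NAD salvage and a known clock target, stood at 1334, 846, 777 and 821 in early light and 2723, 3130.1, 3273 and 1878 in early dark (2.92-fold, -1.55 ± 0.20, limma adjusted p = 0.013). The wild-type ZT0 library was the highest of its group. Nmrk1, a kinase that feeds nicotinamide riboside into NAD, ranged from 165 to 254 against 449.6 to 536 (-1.23 ± 0.18, limma adjusted p = 0.0204). Nnmt, which methylates nicotinamide, had a difference of -1.37 ± 0.28 that did not pass (limma adjusted p = 0.0805). None of 18 nudix hydrolases and decapping genes was called, and Nudt12 itself differed by 0.05 ± 0.14 (limma adjusted p = 0.916). Of 18 genes of polyamine and one-carbon metabolism, 2 rose in early dark, where 0.482% of all tested genes did. These were Amd1 (849 to 907 against 1186 to 1572) and Srm (57.6 to 135 against 228 to 271), which make decarboxylated S-adenosylmethionine and spermidine (limma adjusted p = 0.0333 and 0.0474). Bhmt, which remethylates homocysteine with betaine, lay just outside the threshold on the other side, at 0.97 ± 0.17 (limma adjusted p = 0.0504). In the 8 fits that each left out 1 library, Nampt was called in 8, Nmrk1 in 2, Srm in 1 and Amd1 in 0 of the 8 fits.

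**Figure D4:**
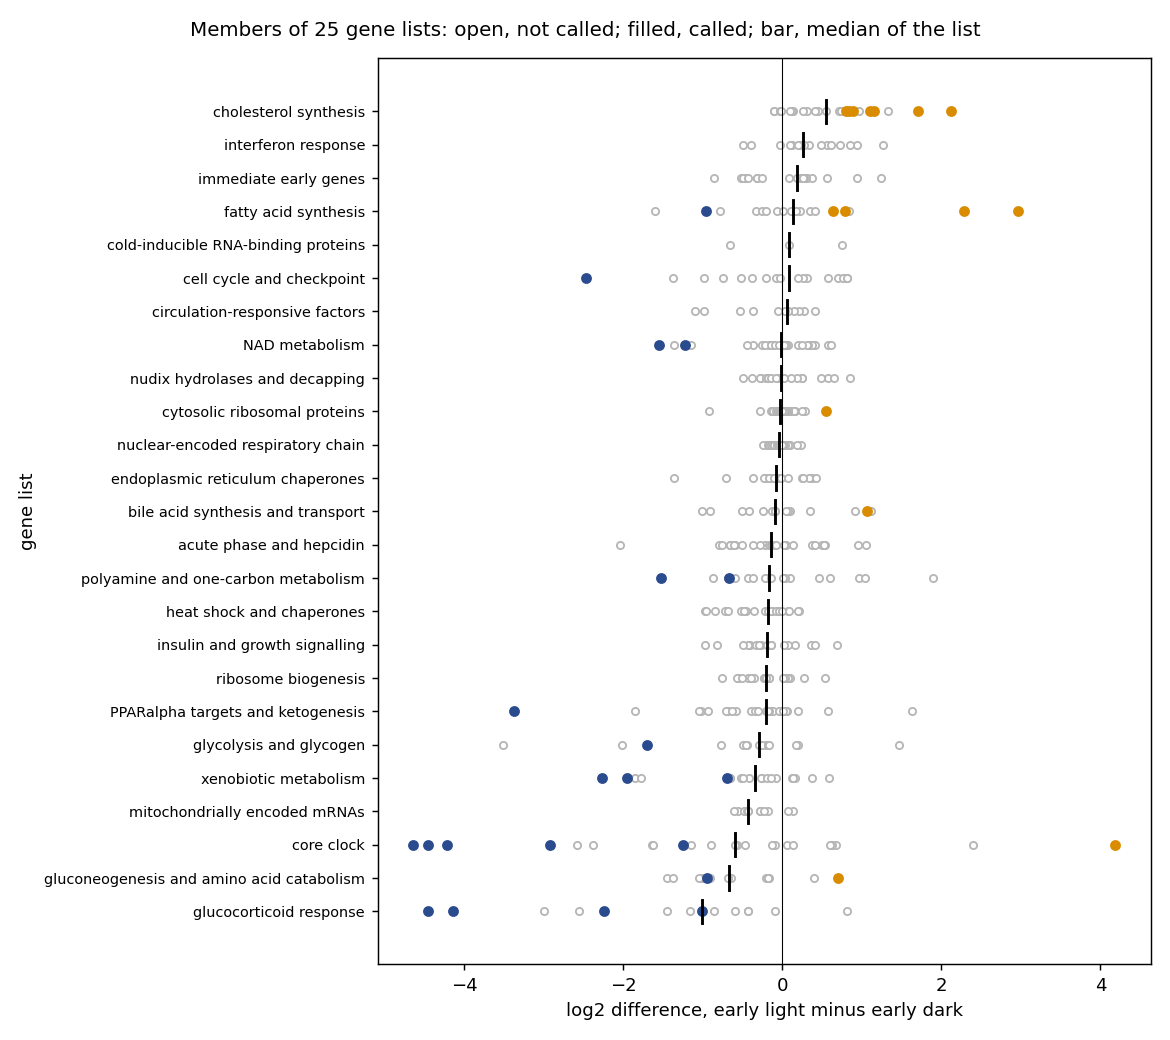
Log2 difference, early light minus early dark (horizontal axis), of every tested member of 25 gene lists (rows), with called members filled in orange (higher in early light) or blue (higher in early dark), other members open, and a bar at the median of each list. Cholesterol synthesis has the highest median, 0.55, with 7 filled points on the right, and glucocorticoid response the lowest, -1.01, with 4 on the left.

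Other lists gave no call in this comparison. None of 21 heat shock and chaperone genes, 20 endoplasmic reticulum chaperones, 3 cold-inducible RNA-binding proteins, 22 ribosome biogenesis genes, 35 nuclear-encoded subunits of the respiratory chain or 13 mitochondrially encoded mRNAs passed, with medians of -0.18, -0.08, 0.09, -0.20, -0.05 and -0.43. The same held for 18 genes of insulin and growth signalling, 19 immediate early genes, 25 acute phase genes, 18 interferon response genes and 12 factors that respond to signals in blood, with medians of -0.19, 0.18, -0.14, 0.26 and 0.06. Among 34 listed cytosolic ribosomal protein genes only Rpl3 was called, where 0.751% of all tested genes were. It stood at 1892 to 2068 in early light and 1289.8 to 1472 in early dark (0.55 ± 0.09, limma adjusted p = 0.0375). Its processed pseudogene Rpl3-ps1 moved the other way, at 665, 161, 704 and 319 and 2449, 2619, 2411 and 2161 (-2.61 ± 0.42, limma adjusted p = 0.0342), and since the pair shares sequence the split of reads between them is uncertain. Over the 8 fits without 1 library, Rpl3-ps1 was called in 3 of 8 fits and Rpl3 in 0. Rpl21, a cytosolic ribosomal protein gene that is no member of the list, was called higher in early dark. It stood at 960, 881, 832 and 877 in early light and 1751, 1701, 1786 and 1544.5 in early dark (-0.93 ± 0.10, limma adjusted p = 0.00602). Rpl21 was not followed in the fits that left out a library.

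Further named genes were among the largest differences. In early dark these included Fmo2, a flavin monooxygenase, at 106, 206, 152 and 26.3 against 985, 735, 1547 and 2145 (-3.67 ± 0.61, limma adjusted p = 0.0381). Ntrk2, the receptor of the growth factor BDNF, stood at 9.93, 7.53, 12.8 and 19.8 and 68.6, 148, 95.9 and 74.5 (-2.87 ± 0.36, limma adjusted p = 0.0126). Nrg4, a growth factor of the EGF family, and Pcsk4, a proprotein convertase, differed by -2.60 ± 0.36 and -2.47 ± 0.36. In both genes the ZT12 libraries were the highest of the 8. St3gal5, which makes the ganglioside GM3, stood at 274, 442, 259 and 224 in early light and 1529, 1358, 1656 and 1342 in early dark (5.05-fold, limma adjusted p = 0.00176). In early light they included Ndrg1, a gene known to respond to hypoxia and stress, at 543, 533, 811 and 606 against 178, 82.4, 207 and 85.5 (2.26 ± 0.32, limma adjusted p = 0.0171). Rfx4, a transcription factor known from brain, rose from 8.71 to 12.2 in early dark to 38.6 to 107 in early light. Rdh11, a retinol dehydrogenase, stood at 1319, 1208, 1382 and 1653 and 597, 589, 508 and 649 (1.24 ± 0.13, limma adjusted p = 0.00602). S100a10, Coq8a, Syne1 and Tnfaip2 were 2.51, 2.46, 2.61 and 2.37-fold higher in early light, all without overlap. Across fits that left out 1 library each, St3gal5, Rdh11 and S100a10 were called in 8 of 8 fits, Ntrk2 in 7, Coq8a in 5, Ndrg1 and Syne1 in 4, Nrg4 and Rfx4 in 3, Fmo2 and Pcsk4 in 2 and Tnfaip2 in 1.

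The 3 smallest p-values of all belonged to transcripts without a named product. Gm13370, a processed pseudogene on chromosome 2 (chr2:24985984-24986466, plus strand, GRCm38) inside the gene Pnpla7, was listed at 379, 535, 1330.3 and 1439 in early light and at 0 in all 4 early-dark libraries (limma adjusted p = 2.51e-05). It was also listed at 0 in the 4 libraries of ZT8 and ZT20, so no fold is given. Reads of processed pseudogenes, which include Gm13370 and Gm46223 below, can be split with their parent genes, so their assignment is uncertain. The long noncoding RNA Gm42031 (chr8:85125872-85132289, minus strand) stood at 100.4, 112, 139.9 and 165 and 717, 750.1, 756 and 1194 (-2.71 ± 0.16, limma adjusted p = 0.000613). Gm43305, a processed transcript (chr14:54292443-54297456, minus strand), stood at 854, 1136, 1120.3 and 1662 and 8575, 6175, 7900.1 and 10465 (7.01-fold higher in early dark, -2.81 ± 0.18, limma adjusted p = 0.000628). No other gene of GENCODE vM21 overlaps either of the latter. AC102496.1, a long noncoding RNA, ranged from 48.1 to 127 in early light and from 642 to 1250.1 in early dark (-3.71 ± 0.31, limma adjusted p = 0.00176). On chromosome 10, the pseudogene Gm46223 (chr10:50422134-50422808) and the noncoding RNA Gm48275 (chr10:50425044-50425330) lie on one strand close to each other and differed by -3.67 ± 0.41 and -2.84 ± 0.22 (limma adjusted p = 0.00692 and 0.00176). Rnu5g, a U5 spliceosomal RNA on chromosome 9 (chr9:65201726-65201841), was listed at 0 in the 4 early-light libraries and at 24.1, 58.7, 64.7 and 28.4 in early dark (limma adjusted p = 0.00176). U5 RNAs have near-identical copies, so the assignment of its reads is uncertain. Rnu5g also overlaps the gene Parp16 on the opposite strand, and the strand setting of the counting is not known here.

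Few genes differed between the genotypes in their response to phase at this number of libraries. The interaction of phase and genotype called 4 of 18653 genes (0.0214%) and 729 at an unadjusted p under 0.05 (3.91%). Each of the 4 was listed at 0 in both libraries of at least 1 genotype and phase. Rpl10-ps1 stood at 612, 433, 921 and 749 in early light and 543, 581, 0 and 0 in early dark, so that of the 8 libraries the early-dark knockout pair alone was at 0 (difference of the effects, knockout minus wild type, 9.82, limma adjusted p = 0.000131). Gm10163 was at 0 in the 2 early-light knockout libraries only (968, 832, 0 and 0 and 613, 626, 544 and 359, limma adjusted p = 0.000131). Tcea1-ps1 was at 0 in early light in wild type and in early dark in knockout (limma adjusted p = 0.000485). These 3 are processed pseudogenes, whose reads can be split with their parent genes. Gvin1, an interferon-induced GTPase of a family of close paralogs, stood at 0, 0, 1185 and 768 and 925, 366, 1319.9 and 1086 (limma adjusted p = 0.00349). The next smallest p-values, which did not pass, belonged to the pseudogene Gm12191 and the interferon-induced Ifi202b, both above 0 in the early-dark knockout pair alone among the 8 (limma adjusted p = 0.164 and 0.278). Since the line was made in B6D2F1/J embryos, strain differences between mice cannot be told apart from these contrasts.

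The times within each phase were compared in a fit of the 12 libraries with time as a factor. Between ZT0 and ZT4 limma called 0 of 18702 genes, with 1548 (8.28%) at an unadjusted p under 0.05. With limma's precision weights the count was also 0, while a pseudocount of 5 gave 30 and no filter on low values gave 13; without wild-type ZT0 it was 10. Between ZT12 and ZT16 it called 24 (0.128%), 5 higher at ZT12 (0.0267%) and 19 at ZT16 (0.102%). Leaving out 1 of the 4 early-dark libraries gave 5 (wild-type ZT12), 5 (wild-type ZT16), 18 (knockout ZT12) and 4 (knockout ZT16), which held 2, 2, 6 and 2 of the 24. Gpcpd1, a glycerophosphocholine phosphodiesterase, and Tubb2a, a beta-tubulin, were called in 4 of these 4 fits. None of the 24 was among the 140. The 19 included 5 of 21 heat shock and chaperone genes, Hsph1, Hsp90aa1, Hsp90ab1, Hspb1 and Fkbp4, and the endoplasmic reticulum chaperone Hspa5. Hsp90aa1 and Hspb1 were called in 1 of the 4 fits that left out a library, the one without knockout ZT12, and Hsph1, Hsp90ab1, Fkbp4 and Hspa5 in 0. Hsp90aa1, the inducible HSP90, stood at 2240.0 and 3193 at ZT12 (wild type, knockout) and at 9083 and 10392 at ZT16 (-1.86 ± 0.18, limma adjusted p = 0.0141). Hspb1, a small heat shock protein, stood at 50.6 and 57.6 and at 325 and 318 (-2.55 ± 0.23, limma adjusted p = 0.00996). The median log2 difference of the 21 genes, ZT12 minus ZT16, was -0.90, and that of all genes was -0.004.

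Livers of ZT8 and ZT20, which took no part in choosing or testing the 140 genes, lay on the median between the groups. On a scale on which the early-dark mean is 0 and the early-light mean is 1, the median position of the 50 early-light genes was 0.56 at ZT8 and 0.54 at ZT20. For the 90 early-dark genes it was 0.51 at ZT8 and 0.39 at ZT20. The scale rests on genes chosen for the gap between the groups, so libraries unrelated to phase would also fall near its middle. Unselected genes were not placed on it, and the positions do not show that these times are intermediate. Between ZT8 and ZT20 limma called 208 of 18702 genes (1.11%), 68 higher at ZT8 (0.364%) and 140 at ZT20 (0.749%); leaving out 1 of the 4 libraries lowered the count to between 10 (without wild-type ZT20) and 75 (without wild-type ZT8), with 24 without knockout ZT8 and 22 without knockout ZT20, the library with the highest pancreas markers. Of the 50 early-light genes 3 (6.0%) were among the 208, all higher at ZT20, and of the 90 early-dark genes 7 (7.78%) were, 2 higher at ZT8 and 5 at ZT20. The fit of 12 libraries takes its spread and its genotype effect from all times, those of the 8 libraries included. Ciart and Pcsk4 were the 2 higher at ZT8: Ciart stood at 161 and 221 at ZT8 (wild type, knockout) and 15.9 and 14.6 at ZT20, so that its ZT8 level lay between those of ZT4 and ZT12 (3.55 ± 0.57, limma adjusted p = 0.0301). Clpx and Ndrg1 were higher at ZT20, with 1304 and 1312 against 4397 and 4817 for Clpx. Of the 23 clock genes 5 were higher at ZT8 and 5 at ZT20, among them Nr1d1 (6.61 ± 0.50), Dbp (5.17 ± 0.42) and Arntl (-4.09 ± 0.41), which the comparison of early light with early dark did not call (limma adjusted p = 0.00148, 0.0018 and 0.00584). When each ZT8 or ZT20 library was left out, Clpx, Nr1d1 and Dbp were called in 4 of 4 fits, Arntl in 2, Ndrg1 in 1, and Ciart and Pcsk4 in 0.

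**Figure D5:**
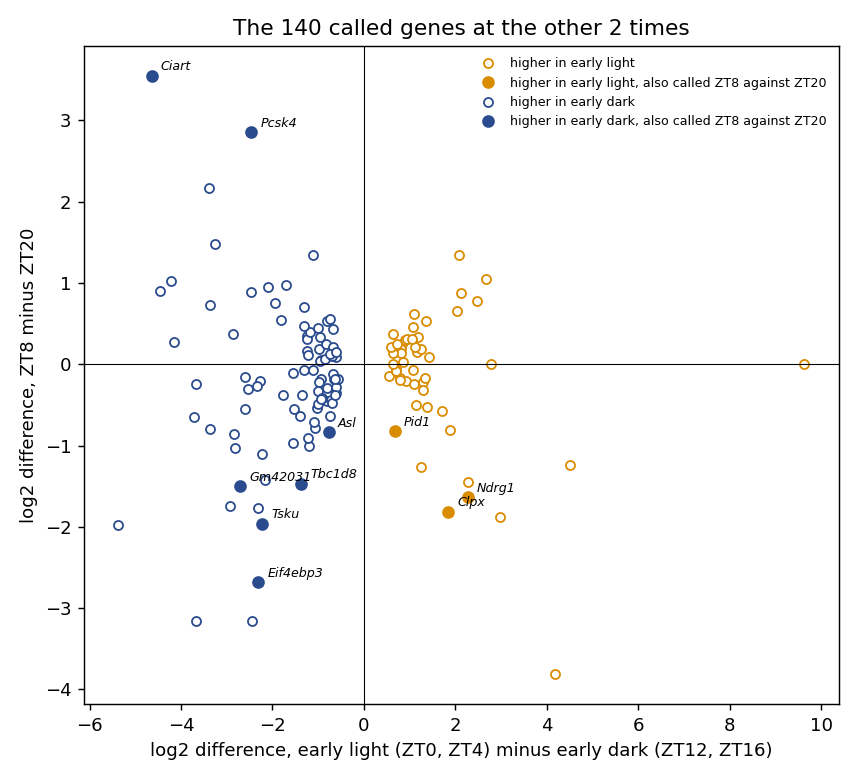
Log2 difference ZT8 minus ZT20 (vertical axis) against log2 difference early light minus early dark (horizontal axis) for the 140 called genes, in orange where higher in early light and blue where higher in early dark, filled where also called between ZT8 and ZT20. Only 10 points are filled, among them Ciart at the upper left and Clpx and Ndrg1 at the lower right.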

How the data were processed

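The authors' deposited table gives a normalized signal per gene for 12 liver libraries: estimated counts scaled per library. It also holds the log2 fold change and the adjusted p-value of the authors' own comparison of genotypes, used only to check Nudt12: in the authors' deposited table its log2 fold change, knockout over wild type, was -2.17 (adjusted p = 5.19e-31). The submitters' processing notes name the tools Salmon (0.12.0), DESeq, DESeq2 (1.24.0) and R (3.6.0) and the build GRCm38, without roles. Per the labels' protocols, 500 ng of total RNA was depleted of ribosomal RNA, made into stranded libraries and read as 100-base single reads; the strand setting of the counting is not known here.

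Only 14.3 to 17.5% of low values were whole multiples of a library's step (tolerance 1e-04), so no count test was used. Genes with a mean of at least 1 over the 8 libraries were tested on log2(value + 1), a scale that shrinks the changes of low genes. The test was limma 3.58.1 (R 4.3.3) with a trended prior, genotype as covariate and Benjamini-Hochberg adjustment at 0.05. The interaction was fitted on the same 8 libraries, time contrasts on all 12. In simulated data the code called 32 of 100 genes changed 2-fold and 78 of 100 changed 4-fold. These genes had means of at least 20, and 5 unchanged genes were called.

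Members, lists and motifs were chosen with earlier results of these data known. Named genes are Nudt12, in each direction the 12 genes with the largest change (mean of at least 20, no Gm or Rik symbol), all core clock genes, those with the smallest p in other lists (at most 5 each) and 6 genes by interaction p. Fdps, Sqle, Lss, Msmo1, Elovl6, Thrsp, Cyp7a1, Hsd3b7, G6pc, Pck1, Crot, Tsc22d3, Nrg4, Pcsk4, Rdh11, Rpl21, Tnfaip2, St3gal5, Serpina6, Gm13370, Gm42031, Gm43305, Gm46223, Gm48275, the genes named in the ZT12 and ZT16 comparison and the genes under Other observations were chosen after their values were seen. Some members of the cholesterol synthesis list enter its counts and are not reported here. Coordinates are from GENCODE vM21 (GRCm38), promoters from RefSeq (GRCm38.p6). Precision weights and leaving out pairs of libraries, or libraries in the time contrasts, were alternatives added after seeing the data.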

Additional observations from a re-analysis of the deposited data

Results flagged for a closer look

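In 12 of 220 groups of 4 libraries checked, 1 library stood apart from the other 3, which chance gives in about 1 of 20 groups. In early light the wild-type ZT4 library was high for Cry2 (462.4, others 179.9 to 220.2) and the wild-type ZT0 library for Nampt (1334, others 777.4 to 845.6). The knockout ZT0 library was high for Fkbp5 (325.5, others 155.5 to 177.3) and Alas1 (4945, others 1876 to 1994) and low for Abcb11 (13995, others 18969 to 19793). The knockout ZT4 library was high for Mvd (330, others 253.8 to 265.8) and for the noncoding RNA Gm48275 (208.7, others 113 to 125.3). In early dark the knockout ZT16 library was low for Errfi1 (15070, others 17953 to 18543) and high for Gm42031 (1194, others 717.3 to 755.7). Csrp3, a muscle gene, was high in the knockout ZT12 library (116, others 83.5 to 86.4). The knockout ZT16 library also stood apart for the summed exocrine pancreas markers (16050, others 425.9 to 483.5), as did the wild-type ZT0 library in early light (9419, others 472.1 to 1551).

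For 4 genes the difference between early light and early dark itself differed between the genotypes by the interaction term. On the log2 scale, knockout minus wild type, it was 9.82 for Rpl10-ps1, -9.33 for Gm10163, 13.4 for Tcea1-ps1 and 8.86 for Gvin1 (limma adjusted p = 0.000131, 0.000131, 0.000485 and 0.00349), each resting on libraries listed at 0. Outside the 8 libraries, the summed exocrine pancreas markers reached 71650 in the knockout ZT20 library, against 693.6 in wild type at ZT20.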

How the results depend on the processing

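No paired analysis was possible because the replicate numbers follow accession order and each genotype and time has 1 library. Of the 140 genes, 135 and 133 were also called with pseudocounts of 0.1 and 5, 132 with no filter, 133 with a mean of at least 10, 140 after median-ratio rescaling, 113 with equal totals (computed without mitochondrially encoded genes and 7SL RNA) and 108 with precision weights. With equal totals 56 genes were called higher in early light and 69 in early dark, 44.8% of the calls being in early light against 35.7% under the deposited scaling. The count moved by over 1.5 times in other settings. It was 430 in all 12 livers with time as a factor (176 higher in early light, 254 in early dark), 21 without the trended prior (6 and 15), 14 in wild type alone (3 and 11), 4 in knockout alone (3 and 1), 27 without the ZT4 libraries (4 and 23) and 12 without wild-type ZT0 and knockout ZT16 (1 and 11). Without the genotype term 77 genes were higher in early light. Leaving out 1 library gave 50 to 121 genes, 16 to 36 higher in early light and 34 to 85 in early dark. The interaction gave 3 to 7 genes when 1 library was left out, 8 without the trended prior and 1 with precision weights. ZT0 against ZT4 gave 30 genes with a pseudocount of 5, 13 with no filter, 1 with a mean of at least 10 and 0 to 10 when 1 library was left out. ZT12 against ZT16 gave 4 to 18 and ZT8 against ZT20 gave 10 to 75 when 1 library was left out, and the latter 113 with precision weights. The cause was not tested, beyond the fewer libraries in several of these settings.

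None of the 76 called genes followed through the alternative runs changed direction in any of them. Their groups do not overlap, so runs on fewer of the same 8 libraries could not reverse them, and this is no test of the calls. Of the 76, 31 were called in each of the 8 fits that left out a library. Precision weights ended the calls of Npas2, Ciart, Acot3, Mt2, Rfx4, Clpx and Tnfaip2, and equal totals those of Errfi1, Nr1i3, Amd1, Rpl3, Tnfaip2 and Serpina6. Among the 29 named genes that were not called, 3 changed direction. The log2 difference of Nudt12 ranged from -0.037 (without wild-type ZT16) to 0.13 with 1 library left out (-0.0065 without wild-type ZT4). Cry1 stood at 0.51 without the ZT4 libraries, and Nr1d1 at -1.65 without them, and from -0.44 (without knockout ZT4) to 1.55 with 1 library left out (-0.16 without wild-type ZT4). The median log2 difference of all genes was 0.03, 0.03 and 0.09 under the deposited scaling, median-ratio rescaling and equal totals. The number of libraries, 4 a group, limits the precision, and a gene that did not pass is not shown to be unchanged.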

Other observations

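The called genes not described above, from which those named here were chosen after their values were seen, held further small groups of enzymes. Besides Rdh11, Dhrs3, which reduces retinal to retinol, and Adh4, an alcohol dehydrogenase that also acts on retinol, were higher in early light: Dhrs3 stood at 1759.8 to 1905 against 1033 to 1079.5 in early dark and Adh4 at 2317 to 3570.0 against 1673 to 1884 (0.79 ± 0.09 and 0.71 ± 0.12 on the log2 scale, limma adjusted p = 0.00679 and 0.0445). Amt, the aminomethyltransferase of glycine cleavage, Gclc, the catalytic subunit of the enzyme that limits glutathione synthesis, and Mmab, an enzyme of the cobalamin cofactor, differed in the same direction by 0.93, 0.69 and 0.84 (limma adjusted p = 0.0126, 0.0398 and 0.0429). A pair of genes known from muscle were called as well. Csrp3 stood at 165, 219.8, 219.6 and 168 in early light and 83.5, 85.7, 116 and 86.4 in early dark, and Srl at 40.7, 21.4, 45.5 and 22.1 and 7.38, 6.64, 5.77 and 6.47 (limma adjusted p = 0.0476 and 0.0476). The 6 skeletal muscle markers summed to 377 and 658 in the ZT4 libraries; among the 8 libraries Srl was highest in those of ZT0, while the wild-type ZT8 library, outside the comparison, stood at 114; without the ZT4 libraries the log2 difference was 1.04 ± 0.22 for Csrp3 and 2.55 ± 0.41 for Srl (limma adjusted p = 0.212 and 0.111).

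In early dark, Gpat4 and Dgat2, which make glycerolipids and triglycerides, stood at 3938 to 4496 and 5166 to 6585 against 2027 to 2679 and 3370.5 to 4619.6 in early light (-0.80 ± 0.10 and -0.57 ± 0.09, limma adjusted p = 0.013 and 0.0355). Slc1a2, a glutamate transporter, Asl, the argininosuccinate lyase of the urea cycle, Ppat, the first committed enzyme of purine synthesis, and Pdxk, which phosphorylates vitamin B6, differed by -0.85, -0.77, -0.99 and -1.02 (limma adjusted p = 0.0144, 0.0274, 0.0153 and 0.0126). The secreted protein Tsku stood at 443, 307, 489.6 and 228 in early light and 1288, 1945, 1507 and 1911 in early dark, and Eif4ebp3, an inhibitor of translation initiation, at 149, 85, 138 and 68.5 and 369, 691, 341 and 868 (limma adjusted p = 0.00806 and 0.0337). In both genotypes these genes were higher at ZT16 than at ZT12. Left-out libraries ended many of these calls: Dhrs3 and Tsku were called in 8 of the 8 fits that left out 1 library, Gpat4 and Pdxk in 7, Amt in 6, Slc1a2 in 5, Ppat in 4, Adh4, Gclc and Asl in 1, and Mmab, Srl, Csrp3, Dgat2 and Eif4ebp3 in 0.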
